A study of Rattus norvegicus with 9 samples.

Results

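The 10 genes described here are 6 receptors of the tumour necrosis factor (TNF) superfamily (Tnfrsf1a, Tnfrsf1b, Tnfrsf12a, Tnfrsf11b, Fas and Tnfrsf21) and 4 intracellular proteins that restrain cell death at these receptors (Birc2, Birc3, Cflar and Traf1). They were taken by symbol from the 17588 genes of the table, and all 10 were among the 11732 genes that reached 1 FPKM in at least 3 libraries. Their levels were measured in poly(A) RNA of rat primary chondrocytes of wild-type genotype, 3 libraries per group. In the co-culture group chondrocytes in the lower chamber of a transwell had received interleukin-1β (IL-1β) and then shared medium with dermal fibroblasts in the upper chamber. The IL-1β group received the cytokine alone, and the control group was in routine culture. Dose and duration are not stated in the labels, nor is whether libraries came from separate animals or cultures. P-values therefore cover only differences among these libraries, and part of that spread may be technical.

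TNF-superfamily receptors bind trimeric ligands. Some carry an intracellular death domain and can recruit caspases, others recruit TRAF adaptors that feed NF-κB and MAP kinase signalling, and osteoprotegerin is secreted and has no signalling role of its own. The inhibitor of apoptosis proteins encoded by Birc2 and Birc3 are ubiquitin ligases of the receptor complex, and their ubiquitin chains favour NF-κB signalling over caspase activation. Cflar encodes FLIP, a caspase-like protein without protease activity that blocks the initiator caspase at the receptor. Several of these genes are textbook targets of NF-κB, which IL-1β activates in chondrocytes.

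Levels are FPKM (fragments scaled to transcript length and library total), as deposited by the authors. Changes are differences on log2(FPKM + 1) from limma fitted to all tested genes, with Benjamini-Hochberg adjustment, and calls were made below an adjusted p of 0.05. In IL-1β cells, 6 of the 10 genes rose (Tnfrsf1b, Tnfrsf11b, Fas, Birc3, Cflar and Traf1), 2 fell (Tnfrsf12a and Tnfrsf21), and Tnfrsf1a and Birc2 did not pass the test. Of all tested genes, 46.7% were called in this comparison, 26.5% higher and 20.2% lower. In co-culture cells against IL-1β cells, the 6 genes that IL-1β raised were lower and the 2 that it lowered were higher. In that comparison 22.0% of all tested genes were called, 11.9% higher and 10.1% lower. Both comparisons use the same IL-1β libraries, so their opposite signs are not independent of each other. In co-culture cells against control cells, 5 of the 10 were higher (Tnfrsf1b, Fas, Birc3, Cflar and Traf1) and 1 was lower (Tnfrsf12a), beside 33.9% of all tested genes called, 21.8% higher and 12.2% lower. The median change of the 11732 tested genes was 0.02, 0.02 and 0.04 on the log2 scale in the 3 comparisons. The higher and lower shares of all genes moved with the scaling of libraries. With a common FPKM sum, 2249 genes were higher and 3188 lower in IL-1β cells against control, in place of 3109 and 2370. Median-of-ratios scaling gave 2816 higher and 2659 lower there, and quantile normalization 2312 and 3325. Co-culture against control gave 1541 higher and 2009 lower with a common sum, 1873 and 1852 with median-of-ratios scaling, and 1694 and 2073 with quantile normalization, in place of 2554 and 1427. Co-culture against IL-1β gave 1089 higher and 1330 lower with median-of-ratios scaling, in place of 1393 and 1188.

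**Figure D1:**
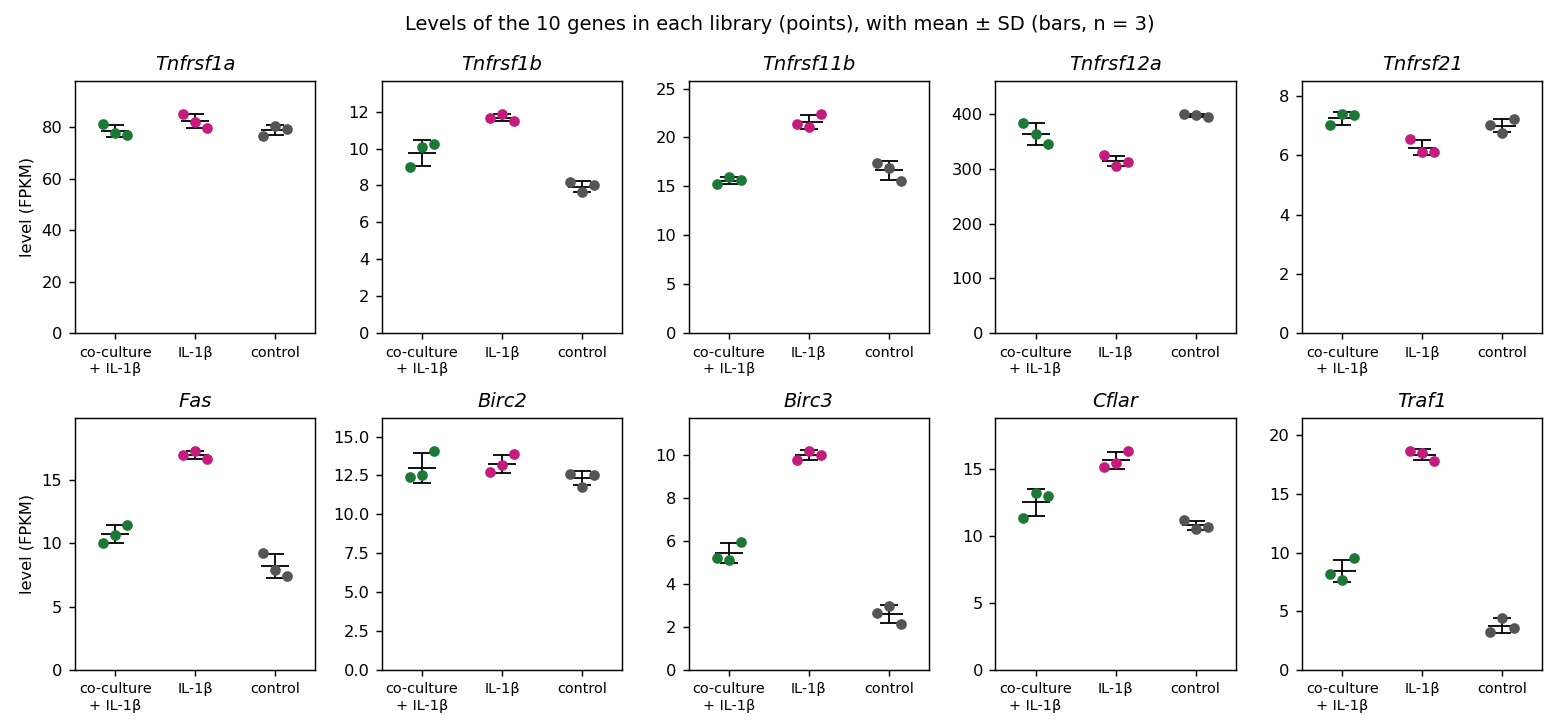
FPKM of each of the 10 genes in every library (points), with the mean and SD of each group (n = 3), for co-culture with IL-1β, IL-1β and control; each panel has its own linear axis from 0. Traf1, Birc3 and Fas stand highest in the IL-1β libraries, with co-culture libraries between them and control, whereas Tnfrsf1a and Birc2 lie at similar levels in all 9.

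Promoter sequence was available from RefSeq (build GRCr8) for 8 of the 10 genes, all but Birc3 and Tnfrsf11b. Windows reached from 250 bases before the annotated start to 50 bases after it, 300 bases in all, and were searched on both strands for 3 motifs. The AP-1 motif TGANTCA was found in 4 of the 8 (Tnfrsf1b, Fas, Birc2 and Traf1), and in 7.33% of all 33469 rat promoters and 4.86% of the 10363 promoters of tested genes. The NF-κB (κB) consensus was found in 1 of the 8 (Fas), beside 7.51% and 10.1%. The E-box CANNTG was found in 4 of the 8 (Tnfrsf12a, Tnfrsf21, Birc2 and Cflar), beside 72.1% and 61.7%. The motifs were chosen with the members' changes known, and a match is a description of these letters, not evidence of binding. The 250 upstream bases of the 4 genes with the AP-1 motif are shown because 3 of them rose with IL-1β and Birc2 did not pass the test. Cflar rose without an AP-1 match, and Birc3 and Tnfrsf11b, which also rose, had no sequence to search. Whether the motif goes with the changes was not tested. They lie at chr5:162387412-162387661 (minus strand) for Tnfrsf1b, chr1:241211905-241212154 (plus strand) for Fas, chr8:13271541-13271790 (minus strand) for Birc2 and chr3:38635771-38636020 (minus strand) for Traf1. Each is written 5′ to 3′ on the gene's strand, ending at the base before the start, with the AP-1 motif in capitals.
Tnfrsf1b: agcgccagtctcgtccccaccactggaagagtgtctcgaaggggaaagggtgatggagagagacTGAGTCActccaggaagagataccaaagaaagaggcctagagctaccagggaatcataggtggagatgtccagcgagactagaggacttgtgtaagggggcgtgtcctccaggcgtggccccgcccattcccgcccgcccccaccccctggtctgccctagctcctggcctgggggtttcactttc
Fas: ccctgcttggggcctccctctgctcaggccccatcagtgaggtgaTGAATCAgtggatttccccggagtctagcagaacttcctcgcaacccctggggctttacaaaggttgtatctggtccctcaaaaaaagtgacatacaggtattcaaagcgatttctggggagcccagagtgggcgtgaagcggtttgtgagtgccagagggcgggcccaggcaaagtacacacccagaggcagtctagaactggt
Birc2: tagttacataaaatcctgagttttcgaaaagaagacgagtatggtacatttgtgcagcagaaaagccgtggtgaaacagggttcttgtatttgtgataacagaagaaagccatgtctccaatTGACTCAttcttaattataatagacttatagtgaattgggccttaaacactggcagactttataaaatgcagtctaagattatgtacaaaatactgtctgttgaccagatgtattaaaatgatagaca
Traf1: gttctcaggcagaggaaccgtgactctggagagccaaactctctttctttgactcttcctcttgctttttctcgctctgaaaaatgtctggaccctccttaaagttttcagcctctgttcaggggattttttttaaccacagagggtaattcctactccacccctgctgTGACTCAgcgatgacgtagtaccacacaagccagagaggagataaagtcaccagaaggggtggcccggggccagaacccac
The motif begins 186 bases before the start in Tnfrsf1b, 205 in Fas, 128 in Birc2 and 81 in Traf1. It reads the same on both strands apart from its middle base, so each match counts once. The κB match of Fas begins 242 bases before the start and does not overlap its AP-1 motif.

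The TNF receptors proper responded unequally. Tnfrsf1a, the widely expressed death-domain receptor for TNF, was at 81.41, 77.69 and 77.15 FPKM in co-culture libraries, 85.26, 82.1 and 79.81 in IL-1β libraries and 76.71, 80.68 and 79.22 in control libraries. The 3 groups overlapped. The log2 change was 0.06 (95% interval -0.02 to 0.14, adjusted p = 0.178) for IL-1β against control, with the sign negative when libraries were set to a common sum (-0.0032) or quantile normalized (-0.0185). For co-culture against IL-1β it was -0.06 (-0.14 to 0.01, adjusted p = 0.228). By mean FPKM, Tnfrsf1a exceeded 87.3% of the tested genes in co-culture cells, 87.7% in IL-1β cells and 87.8% in control cells.

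Tnfrsf1b, the TNF receptor without a death domain that signals through TRAFs, was at 8.98, 10.07 and 10.25 FPKM in co-culture libraries, 11.66, 11.88 and 11.51 in IL-1β libraries and 8.17, 7.63 and 8.03 in control libraries. No 2 groups overlapped, and IL-1β libraries were the highest. It rose in IL-1β cells by 0.50 on the log2 scale (SE 0.0538, adjusted p = 3.42e-05), a 1.47-fold ratio of mean FPKM. It was lower in co-culture than in IL-1β cells (-0.24, adjusted p = 0.0112) and higher than in control cells (0.27, adjusted p = 0.00392).

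Within a library the ratio of Tnfrsf1b to Tnfrsf1a does not depend on library scaling. It was 0.11, 0.13 and 0.133 in co-culture libraries, 0.137, 0.145 and 0.144 in IL-1β libraries and 0.107, 0.0946 and 0.101 in control libraries. The ratio averaged 0.124 ± 0.012 in co-culture cells, 0.142 ± 0.0045 in IL-1β cells and 0.101 ± 0.006 in control cells (SD, n = 3 each). The co-culture libraries lay between the other groups without overlap. The ratios are given as values, with no test.

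Tnfrsf12a (Fn14), the receptor of the cytokine TWEAK, was by far the most abundant of the 10 and moved opposite to most of them. It was at 384.89, 363.17 and 345.17 FPKM in co-culture libraries, 324.83, 305.38 and 312.74 in IL-1β libraries and 400.64, 397.76 and 394.67 in control libraries. The groups did not overlap, with control highest and IL-1β lowest. It fell by 0.34 on the log2 scale in IL-1β cells (SE 0.0393, adjusted p = 6.18e-05) and was 0.21 higher in co-culture than in IL-1β cells (adjusted p = 0.00409). Even at its lowest it ranked 371 of 11732 tested genes by mean FPKM. Co-culture cells stayed below control by a log2 change of -0.13 (adjusted p = 0.0316). That last call ended without any 1 control library or without co-culture replicate 2 or 3, where the change was -0.13 to -0.09 (adjusted p 0.0652 to 0.101). It also ended with no filter on low values (adjusted p = 0.0525) and with no mean-variance trend (adjusted p = 0.0639).

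Its ligand gene Tnfsf12 was at 15.52 ± 1.73 FPKM in co-culture cells, 15.56 ± 0.404 in IL-1β cells and 13.7 ± 0.729 in control cells (SD, n = 3 each) and was not called in the 3 comparisons (adjusted p 0.0688 for IL-1β against control, 0.953 for co-culture against IL-1β and 0.0997 for co-culture against control). For IL-1β against control it was called without co-culture replicate 1 (0.17, adjusted p = 0.0132) and with only the 6 libraries compared (adjusted p = 0.0199).

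Tnfrsf11b encodes osteoprotegerin, the secreted decoy receptor for RANKL. It was at 15.23, 15.92 and 15.62 FPKM in co-culture libraries, 21.39, 21.02 and 22.41 in IL-1β libraries and 17.42, 16.91 and 15.56 in control libraries. The IL-1β libraries stood above all others, while co-culture and control libraries overlapped. The gene rose by 0.36 on the log2 scale in IL-1β cells (SE 0.0471, adjusted p = 0.00015) and was lower in co-culture than in IL-1β cells (-0.45, adjusted p = 0.000133). Against control, co-culture cells differed by -0.09 (95% interval -0.19 to 0.02, adjusted p = 0.191), a difference that was called with a common FPKM sum (-0.15, adjusted p = 0.0469). The gene of RANKL, Tnfsf11, was listed at 0 in every IL-1β and control library and at 0, 0 and 0.75 FPKM in co-culture libraries, so the ratio of decoy to ligand could be formed in 1 library only, where it was 20.8.

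Fas, the death receptor for Fas ligand, was at 10.05, 10.65 and 11.46 FPKM in co-culture libraries, 16.97, 17.34 and 16.66 in IL-1β libraries and 9.27, 7.91 and 7.43 in control libraries. No 2 groups overlapped. The rise in IL-1β cells was 0.97 on the log2 scale (SE 0.073, adjusted p = 2.54e-06), or 2.07-fold in mean FPKM. In co-culture cells Fas was 1.59-fold lower than in IL-1β cells (log2 change -0.62, adjusted p = 0.000266) and 1.31-fold higher than in control cells (0.35, adjusted p = 0.00451). Its ligand gene Faslg stayed under the filter, at 0.15, 0.43 and 0.1 FPKM in co-culture libraries, 0.1, 0.2 and 0.14 in IL-1β libraries and 0.28, 0.67 and 0.4 in control libraries.

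Tnfrsf21 encodes death receptor 6, a death-domain receptor known mainly from neurons and lymphocytes. It was the lowest of the 6 receptors in IL-1β cells. Levels were 7.01, 7.4 and 7.36 FPKM in co-culture libraries, 6.55, 6.1 and 6.12 in IL-1β libraries and 7.04, 6.76 and 7.22 in control libraries. IL-1β libraries lay below both other groups, which overlapped each other. The log2 change was -0.14 in IL-1β cells against control (adjusted p = 0.0385) and 0.19 in co-culture against IL-1β cells (adjusted p = 0.0235). The first call ended without control replicate 1 or 3, IL-1β replicate 2 or 3, or co-culture replicate 3, where the change was -0.14 to -0.12 (adjusted p 0.0512 to 0.12). It also ended with no filter on low values (adjusted p = 0.0556) and with only the 6 libraries compared (adjusted p = 0.0566). The other call ended without IL-1β replicate 2 or 3 or co-culture replicate 2 or 3, where the change was 0.17 to 0.18 (adjusted p 0.0684 to 0.0762).

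**Figure D2:**
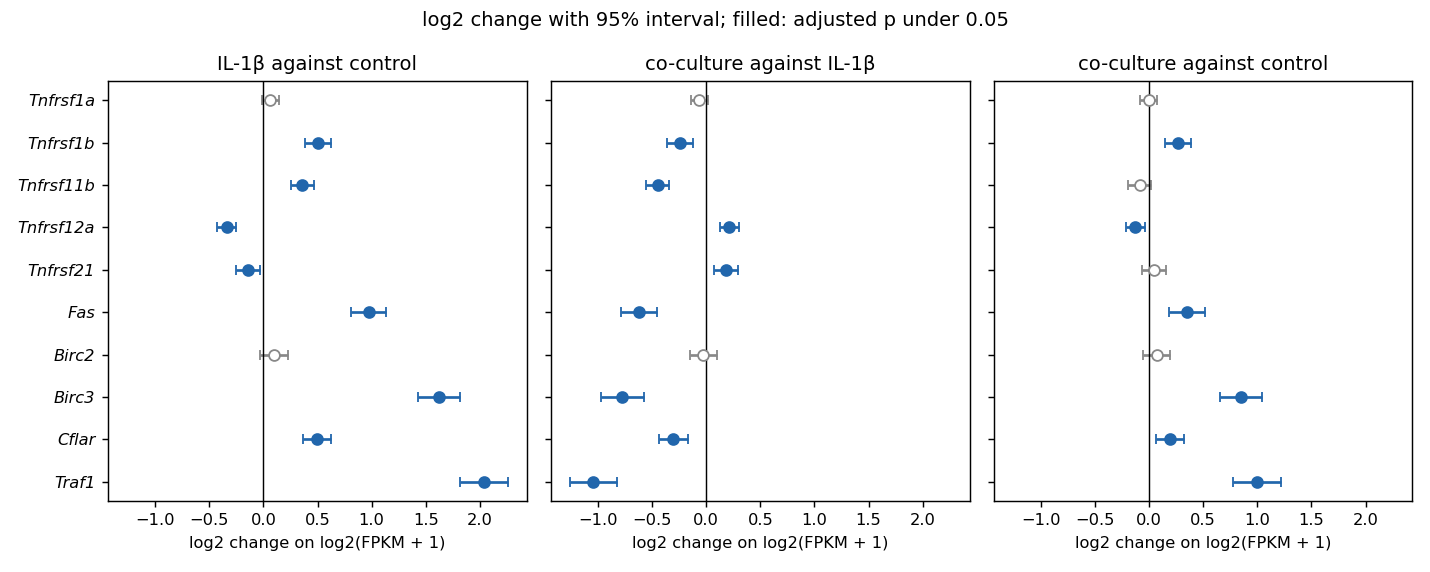
Change of each gene on log2(FPKM + 1) with its 95% interval in the 3 comparisons (x axis), filled where the adjusted p from limma was under 0.05. Traf1 (2.04) and Birc3 (1.62) show the largest rises of the 10 with IL-1β, and the same genes the largest decreases in co-culture against IL-1β (-1.04 and -0.77).

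Among the intracellular proteins, Traf1, an adaptor that joins TRAF2 and the cIAP ligases at receptors such as TNFR2, changed most of the 10 genes. It was at 8.18, 7.62 and 9.51 FPKM in co-culture libraries, 18.71, 18.54 and 17.82 in IL-1β libraries and 3.2, 4.44 and 3.58 in control libraries. The groups were well apart, with every co-culture library below every IL-1β library and above every control library. The rise in IL-1β cells was 2.04 on the log2 scale (SE 0.0977, adjusted p = 8.34e-08), 4.91-fold in mean FPKM. In co-culture cells Traf1 was 2.18-fold lower than in IL-1β cells (-1.04, adjusted p = 6.13e-05) and 2.26-fold higher than in control cells (1.00, adjusted p = 3.65e-05). By mean FPKM it ranked 7225 in co-culture cells, 4874 in IL-1β cells and 9229 in control cells.

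Birc3, which encodes cIAP2, was at 5.21, 5.13 and 5.97 FPKM in co-culture libraries, 9.75, 10.21 and 10 in IL-1β libraries and 2.65, 2.96 and 2.13 in control libraries. Again no 2 groups overlapped. It rose 3.87-fold in IL-1β cells (log2 change 1.62, SE 0.0872, adjusted p = 2.02e-07). In co-culture cells it was 1.84-fold lower than in IL-1β cells (-0.77, adjusted p = 0.000197) and 2.11-fold higher than in control cells (0.85, adjusted p = 5.02e-05).

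Birc2, which encodes the close relative cIAP1, is the neighbouring gene of Birc3 in the RefSeq order. It was at 12.38, 12.52 and 14.1 FPKM in co-culture libraries, 12.7, 13.16 and 13.86 in IL-1β libraries and 12.62, 11.79 and 12.53 in control libraries. The IL-1β libraries stood just above the control libraries, and co-culture libraries overlapped both. None of its 3 comparisons was called. The log2 change was 0.10 for IL-1β against control (95% interval -0.03 to 0.22, adjusted p = 0.194) and -0.03 for co-culture against IL-1β (-0.15 to 0.10, adjusted p = 0.789). For co-culture against control it was 0.07 (-0.06 to 0.20, adjusted p = 0.375).

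The balance of the 2 ligase genes therefore moved with Birc3. The ratio of Birc3 to Birc2 was 0.421, 0.41 and 0.423 in co-culture libraries, 0.768, 0.776 and 0.722 in IL-1β libraries and 0.21, 0.251 and 0.17 in control libraries. Its mean was 0.418 ± 0.0073 in co-culture cells, 0.755 ± 0.029 in IL-1β cells and 0.21 ± 0.041 in control cells (SD, n = 3 each). The 3 groups were apart, and Birc2 stayed the more abundant transcript per length in every library.

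**Figure D3:**
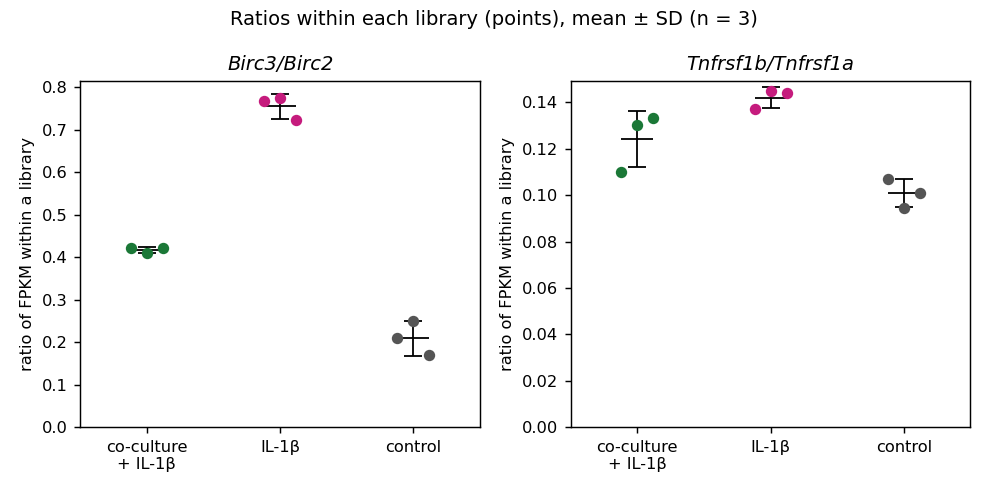
Ratio of FPKM within each library (points) with mean and SD (n = 3) for Birc3 over Birc2 and Tnfrsf1b over Tnfrsf1a, in co-culture with IL-1β, IL-1β and control; axes start at 0. The Birc3 to Birc2 ratio averaged 0.418 in co-culture, 0.755 in IL-1β and 0.21 in control cells, and the groups did not overlap.

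Cflar, the gene of FLIP, was at 11.38, 13.27 and 12.98 FPKM in co-culture libraries, 15.2, 15.47 and 16.41 in IL-1β libraries and 11.21, 10.57 and 10.72 in control libraries. The groups did not overlap, although co-culture replicate 1 lay only just above the control libraries. It rose by 0.50 on the log2 scale in IL-1β cells (SE 0.0588, adjusted p = 7.25e-05), a 1.45-fold ratio. Co-culture cells had less than IL-1β cells (-0.30, adjusted p = 0.00515) and more than control cells (0.19, adjusted p = 0.0303). The difference from control was not called with a common FPKM sum (0.13, adjusted p = 0.145), median-of-ratios scaling (adjusted p = 0.0617), quantile normalization (adjusted p = 0.0924) or only the 6 libraries compared (adjusted p = 0.0518). It was also not called without control replicate 2 or 3 or co-culture replicate 2 or 3 (0.15 to 0.19, adjusted p 0.0801 to 0.102). In the RefSeq annotation Cflar overlaps Casp8, the gene of the caspase it blocks, and the lncRNA gene LOC100909946. Overlaps were sought without regard to strand, and the labels do not state whether strand was kept. Reads of Cflar and of the genes it overlaps may therefore not have been told apart in full. The same limit holds for Tnfrsf1b, which overlaps the protein-coding gene LOC103692519. It also holds for Birc3, which overlaps the pseudogene Ramac-ps1, and for Fas, which overlaps an snRNA gene.

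**Figure D4:**
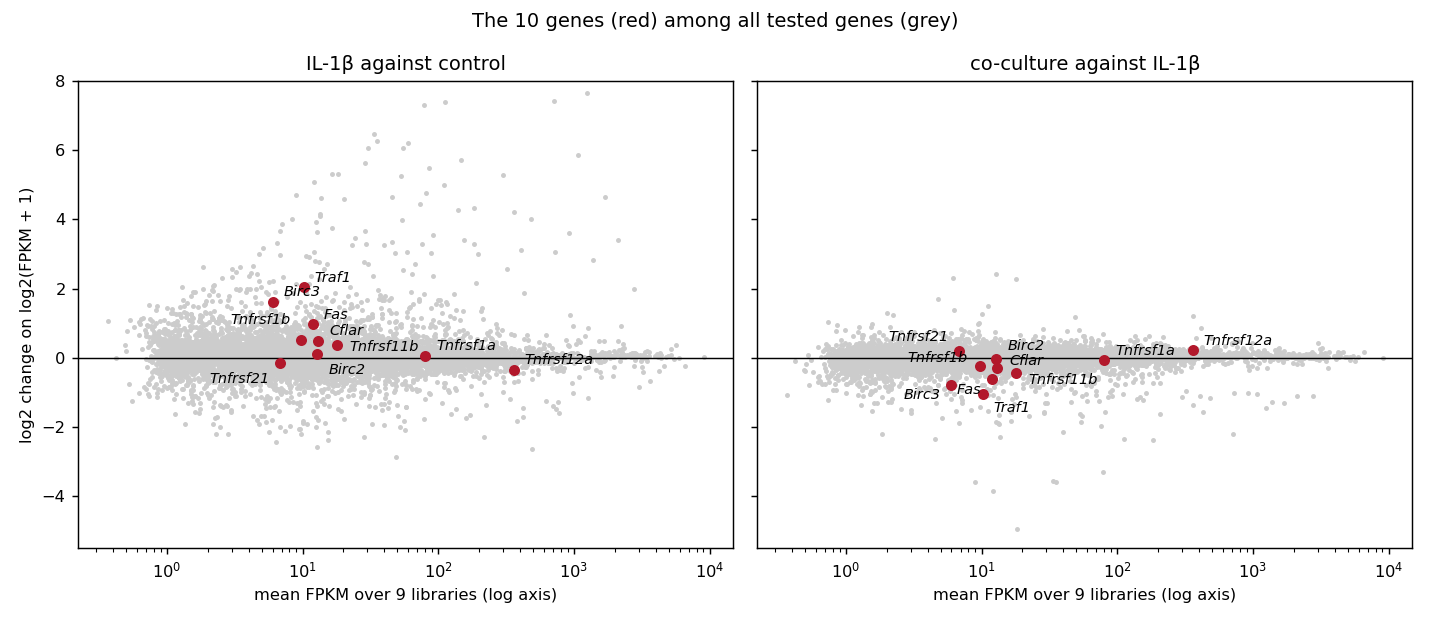
Change on log2(FPKM + 1) against mean FPKM over the 9 libraries (log axis) for the 11732 tested genes (grey) and the 10 described here (red), for IL-1β against control and co-culture against IL-1β. Many grey points lie beyond Traf1, whose changes were 2.04 and -1.04, and Tnfrsf12a sits far to the right at low change.

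Genes next to the members moved in either direction or little. These neighbours, taken from RefSeq gene order, were looked at after the members' values were known. Acta2, the smooth muscle actin gene beside Fas, averaged 283.9 FPKM in co-culture cells, 188.8 in IL-1β cells and 665.3 in control cells. It thus fell by 1.81 on the log2 scale in IL-1β cells (adjusted p = 1.97e-09), whereas Ch25h, cholesterol 25-hydroxylase on the other side of Fas, rose by 1.99 (adjusted p = 3.23e-07). Around the Birc pair, Yap1 changed by 0.14 (adjusted p = 0.00821) and Tmem123 by 0.20 (adjusted p = 0.000637) in IL-1β cells, and neither was called in co-culture against IL-1β. With IL-1β, Ndufb3 beside Cflar rose by 0.30 (adjusted p = 0.00125). Hcfc1r1 beside Tnfrsf12a rose by 0.18 (adjusted p = 0.0327) and Phf19 beside Traf1 by 0.12 (adjusted p = 0.0426). Vps13d beside Tnfrsf1b and Cd2ap beside Tnfrsf21 were not called. Against IL-1β cells, co-culture cells had no call for any of these genes. Casp8 was at 8.59, 7.99 and 8.17 FPKM in co-culture libraries, 10.83, 10.37 and 11.57 in IL-1β libraries and 5.7, 5.11 and 5.55 in control libraries. It rose by 0.89 with IL-1β (adjusted p = 7.74e-07) and was lower in co-culture than in IL-1β cells (-0.37, adjusted p = 0.00146), the same directions as Cflar.

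The genes most like the 2 most variable members were found by the root-mean-square difference of centred log2(FPKM + 1) values over the 9 libraries. For Traf1 they were Fth1 (0.113), Slc9a3r1 (0.116) and Areg (0.124). Fth1, ferritin heavy chain, averaged 2236 FPKM in co-culture cells, 4840 in IL-1β cells and 1213 in control cells. For Birc3 they were Slc16a1 (0.105), Nov (0.107) and Errfi1 (0.117). Slc16a1, a lactate transporter, averaged 91.64 FPKM in co-culture cells, 157.6 in IL-1β cells and 49.06 in control cells.

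The rest of the pathway was read from lists of genes, with the number called out of those above the filter. The shares of all tested genes to set beside each count are 26.5% higher and 20.2% lower for IL-1β against control. For co-culture against IL-1β they are 11.9% higher and 10.1% lower. Whether any list differed from these shares was not tested. Of 18 TNF-superfamily ligands, 14 were in the table and 6 passed the filter. In IL-1β cells 2 were higher (Tnfsf15 and Tnfsf13) and 1 was lower (Tnfsf18), with a list median of 0.04 beside 0.02 for all genes. In co-culture against IL-1β cells Tnfsf15 and Tnfsf13 were lower and none was higher, also at an unadjusted p under 0.05. Tnfsf15, the ligand TL1A, averaged 0.593 FPKM in co-culture cells, 2.20 in IL-1β cells and 0.19 in control cells. It passed the filter only through its IL-1β libraries (2.62, 1.56 and 2.43 FPKM). Co-culture libraries reached at most 0.89 and control libraries at most 0.43, so its calls are not independent of the filter. Tnfsf13 passed only through IL-1β and co-culture libraries, with control at 0.37, 0.99 and 0.73 FPKM. Its call in IL-1β against control cells has the same limit. Tnf was under the filter at 0, 0.15 and 0.1 FPKM in co-culture libraries, 0.52, 0.33 and 0.28 in IL-1β libraries and 0, 0.05 and 0.05 in control libraries. Tnfsf10, the gene of TRAIL, was listed at 0 in every IL-1β and control library and at 0.04, 0.02 and 0.16 FPKM in co-culture libraries. The call of Tnfsf13 in co-culture against IL-1β (-0.53, adjusted p = 0.0257) ended without IL-1β replicate 1 or 2 or co-culture replicate 1 or 2 (-0.54 to -0.46, adjusted p 0.0625 to 0.0875) and with a pseudocount of 0.1 (adjusted p = 0.0795). With no filter on low values, Tnf itself was called, higher in IL-1β than in control cells (0.41, adjusted p = 0.00229) and lower in co-culture than in IL-1β cells (-0.34, adjusted p = 0.0144). Tnfsf8, also under the filter, was called in the same directions there (0.93, adjusted p = 0.000244, and -0.52, adjusted p = 0.0163). Tnfsf8 was also called higher in co-culture than in control cells (0.42, adjusted p = 0.0276).

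Of 20 other receptors of the superfamily, 19 were in the table and 7 passed the filter. IL-1β raised 3 of them, with a median of 0.08, and lowered none in the limma test, although 1 (Tnfrsf10b) was lower at an unadjusted p under 0.05. Tnfrsf10b, a TRAIL receptor, was called lower without co-culture replicate 1 or 2 (-0.16, adjusted p 0.0232 and 0.04) and under the 3 other scalings (-0.22 to -0.18, adjusted p 0.0137 to 0.0277). Tnfrsf9 (4-1BB, a costimulatory receptor of lymphocytes) was at 3.19, 3.07 and 3.43 FPKM in co-culture libraries, 5.87, 6.34 and 6.28 in IL-1β libraries and 0.37, 0.12 and 0.36 in control libraries. Its log2 change was 2.49 for IL-1β against control (adjusted p = 8.54e-09), larger than that of any of the 10 members, and -0.76 for co-culture against IL-1β (adjusted p = 0.000241). Cd40, the receptor through which T cells license antigen-presenting cells, averaged 1.29 FPKM in co-culture cells, 2.68 in IL-1β cells and 0.23 in control cells (log2 change 1.59 for IL-1β, adjusted p = 4.95e-06, and -0.68 for co-culture against IL-1β, adjusted p = 0.00478). The co-culture call of Cd40 ended with a pseudocount of 0.1 (adjusted p = 0.0956). The third, Tnfrsf26, rose by 0.26 (adjusted p = 0.0048). Control libraries of Cd40 were at 0.49, 0.13 and 0.07 FPKM, and those of Tnfrsf9 were also all under 1 FPKM. Both genes passed the filter only through cells given IL-1β, so their calls against control are not independent of the filter. Co-culture cells had less than IL-1β cells of 3 of the 7 (Cd40, Tnfrsf9 and Eda2r) and more of none, also at an unadjusted p under 0.05. The call of Eda2r (-0.33, adjusted p = 0.0206) ended without IL-1β replicate 1 or 3 or co-culture replicate 2 or 3 (-0.32 to -0.29, adjusted p 0.061 to 0.076). Eda2r passed the filter only through IL-1β and control libraries, with co-culture at 0.91, 0.72 and 0.7 FPKM. That call is therefore not independent of the filter.

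Of 21 adaptors and ubiquitin enzymes, all tested, 6 were higher and 4 lower in IL-1β cells, with a median of 0.03. Of all tested genes, 46.7% were called in that comparison and 22.0% in co-culture against IL-1β. Against IL-1β cells, co-culture cells had none higher, also at an unadjusted p under 0.05, and 2 lower (Traf4 and Cyld). The call of Traf4 ended without control replicate 1, any 1 IL-1β library or co-culture replicate 2 or 3 (-0.20 to -0.14, adjusted p 0.0596 to 0.143). It also ended with quantile normalization (adjusted p = 0.0724), no filter on low values (adjusted p = 0.0691) and no mean-variance trend (adjusted p = 0.0528). Among the 4 lower genes with IL-1β, Sharpin and Map3k14 lost their calls without single libraries. For Sharpin these were control replicate 1 or 2 and IL-1β replicate 2 or 3 (adjusted p 0.0643 to 0.101), and for Map3k14 control replicate 1 or 3, any 1 IL-1β library and co-culture replicate 1 (adjusted p 0.052 to 0.129). Map3k14 was also not called with no filter on low values (adjusted p = 0.0576). Traf2, the partner of TRAF1, averaged 21.4 FPKM in co-culture cells, 22.7 in IL-1β cells and 15.4 in control cells. It rose by 0.53 with IL-1β (adjusted p = 4.97e-06), and its change in co-culture against IL-1β was -0.08 (95% interval -0.18 to 0.02, adjusted p = 0.232). Traf3 and Tank rose by 0.38 and 0.30, and Tab2 fell by 0.28, in IL-1β cells (adjusted p 0.000195, 0.000936 and 0.00035).

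Of 15 caspase and necroptosis genes, those higher in IL-1β cells included Casp8, Apaf1, Ripk3 and Mlkl, and 3 were lower (Casp12, Dffa and Cycs), with a median of 0.10. Compared with IL-1β cells, co-culture cells had more Casp12 (0.43, adjusted p = 0.00135) and Cycs (0.21, adjusted p = 0.000663) and less Casp8. Ripk3, the kinase of necroptosis, averaged 40.5 FPKM in co-culture cells, 38.6 in IL-1β cells and 33.5 in control cells. The fall of Cycs in IL-1β cells was small (-0.08, adjusted p = 0.0358) and ended without any 1 control library or without IL-1β replicate 2 or 3 (adjusted p 0.0633 to 0.12). It also ended with no mean-variance trend (adjusted p = 0.0847) and with only the 6 libraries compared (adjusted p = 0.0565). The rise of Mlkl, the effector of necroptosis (0.33, adjusted p = 0.0394), was not called without control replicate 1 or 3 or any 1 IL-1β library (0.22 to 0.36, adjusted p 0.0601 to 0.136). Nor was it called with a common FPKM sum (adjusted p = 0.0698), quantile normalization (adjusted p = 0.103) or no filter on low values (adjusted p = 0.0685). The rise of Apaf1 was not called with a common FPKM sum (adjusted p = 0.0529). Casp6 varied widely within groups, at 3.72, 0.14 and 4.53 FPKM in IL-1β libraries and 0.01, 0 and 1.12 in control libraries. Co-culture libraries were at 0.07, 0.23 and 2.84 FPKM. The groups overlapped, and the change of Casp6 with IL-1β was not called (1.27, SE 0.646, adjusted p = 0.139). It was called higher when IL-1β replicate 2, the lowest of that group, was left out (1.99, adjusted p = 0.0152). In co-culture against IL-1β, Dffa was called higher without co-culture replicate 1 (adjusted p = 0.0376), and Casp9 lower without co-culture replicate 3 (adjusted p = 0.048). Dffa was also called higher with quantile normalization (adjusted p = 0.0365), no mean-variance trend (0.0349) and pseudocounts of 0.1 (0.0473) and 0.5 (0.0498). Diablo was called higher with a common FPKM sum (adjusted p = 0.0454), a mean FPKM of at least 5 (0.0485) and without control replicate 1 (0.0367).

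Of 11 pro-apoptotic BCL2 family genes, 9 passed the filter. IL-1β raised Bid and Bbc3 and lowered Bok, Bak1 and Bmf, with a median of 0.10. Bid links death receptors to mitochondria after cleavage by the initiator caspase. It was at 14.52, 13.93 and 14.55 FPKM in co-culture libraries, 18.47, 19.37 and 17.16 in IL-1β libraries and 5.54, 7.16 and 5.42 in control libraries. Its log2 change was 1.46 for IL-1β against control (adjusted p = 4.16e-07) and -0.33 for co-culture against IL-1β (adjusted p = 0.0212). That co-culture difference was not called without IL-1β replicate 1 or 2 or co-culture replicate 2 (-0.33 to -0.29, adjusted p 0.0596 to 0.0742). Bok went the other way, with 27.1 FPKM in co-culture cells, 20.6 in IL-1β cells and 35.2 in control cells. Relative to IL-1β cells, 3 of the 9 were lower in co-culture (Bid, Bax and Bbc3) and Bok was higher. The calls of Bbc3, which encodes the BH3-only protein PUMA, and of Bmf were the least stable. With IL-1β, that of Bbc3 ended without control replicate 1 or 2, IL-1β replicate 1 or 2, or co-culture replicate 1 (0.17 to 0.23, adjusted p 0.0511 to 0.136) and under the 3 other scalings (adjusted p 0.0549 to 0.162). It also ended with no filter on low values (adjusted p = 0.0682) and with only the 6 libraries compared (adjusted p = 0.055). The call of Bmf ended without control replicate 2 or 3, IL-1β replicate 1 or 2, or co-culture replicate 2 or 3 (-0.26 to -0.19, adjusted p 0.0526 to 0.148) and with only the 6 libraries compared (adjusted p = 0.0692). In co-culture against IL-1β, the call of Bbc3 ended without IL-1β replicate 1 or 2 or co-culture replicate 1 or 3 (-0.30 to -0.23, adjusted p 0.0581 to 0.0958) and with no filter on low values (adjusted p = 0.0567). Bax was also called higher with IL-1β without IL-1β replicate 2 (0.15, adjusted p = 0.00738) or co-culture replicate 3 (0.10, adjusted p = 0.0497), and Bcl2l11 without control replicate 3 (0.75, adjusted p = 0.0493).

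Of 7 anti-apoptotic BCL2 family genes, 6 were in the table and 4 passed the filter. Bcl2a1 and Bcl2l1 rose and Mcl1 fell in IL-1β cells, and Bcl2a1 and Bcl2l1 were lower in co-culture than in IL-1β cells. Bcl2a1, a textbook NF-κB target, was at 3.38, 3.34 and 3.95 FPKM in co-culture libraries, 6.04, 6.54 and 5.61 in IL-1β libraries and 1, 1.16 and 0.33 in control libraries. Its log2 change was 1.98 with IL-1β (adjusted p = 4.21e-06) and -0.63 in co-culture against IL-1β (adjusted p = 0.0183). That second call ended without IL-1β replicate 2 or co-culture replicate 1 or 2 (-0.61 to -0.58, adjusted p 0.0519 to 0.0624) and with a pseudocount of 0.1 (adjusted p = 0.138). The changes of Bcl2l1 (0.14, adjusted p = 0.0261) and Mcl1 (-0.11, adjusted p = 0.0236) with IL-1β were small. The call of Bcl2l1 ended without control replicate 1 or 3 or IL-1β replicate 1 or 2 (adjusted p 0.0705 to 0.0978) and under the 3 other scalings (adjusted p 0.0547 to 0.197). The call of Mcl1 ended without control replicate 1 or 2 or IL-1β replicate 3 (adjusted p 0.0528 to 0.0871).

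Of the other inhibitor of apoptosis genes, 3 passed the filter and none was called in IL-1β cells by limma. At an unadjusted p under 0.05, 1 was lower (Birc5), and it was called without control replicate 1 or IL-1β replicate 1 (-0.14 to -0.13, adjusted p 0.0257 to 0.0466) and under the 3 other scalings (-0.17 to -0.13, adjusted p 0.00585 to 0.0403). Xiap, the direct caspase inhibitor, averaged 9.83 FPKM in co-culture cells, 9.57 in IL-1β cells and 9.04 in control cells and was not called in the 3 comparisons, except in co-culture against control without co-culture replicate 1 (0.19, adjusted p = 0.0371). Birc5 (survivin, a mitotic protein) was 0.23 higher in co-culture than in IL-1β cells (adjusted p = 0.00435).

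The 5 genes of receptor shedding all rose in IL-1β cells, with a median of 0.85, and 4 of them were lower in co-culture than in IL-1β cells. Adam17, the protease that releases TNF and its receptors from the membrane, was at 46.1, 50.13 and 52.86 FPKM in co-culture libraries, 61.41, 63.03 and 62.83 in IL-1β libraries and 34.21, 32.76 and 35.61 in control libraries. Rhbdf2, which brings ADAM17 to the cell surface, averaged 5.56 FPKM in co-culture cells, 7.54 in IL-1β cells and 1.83 in control cells. Timp3, which inhibits ADAM17, moved in the same direction and further, at 12.12, 12.3 and 14.93 FPKM in co-culture libraries, 44.06, 45.2 and 43.38 in IL-1β libraries and 9.96, 9.29 and 10.28 in control libraries. The log2 changes with IL-1β were 0.85, 1.59 and 2.06 for Adam17, Rhbdf2 and Timp3 (adjusted p 3.72e-07, 2.94e-08 and 7.06e-09). Co-culture minus IL-1β values were -0.33, -0.38 and -1.68 (adjusted p 0.00128, 0.00303 and 4.62e-07).

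**Figure D5:**
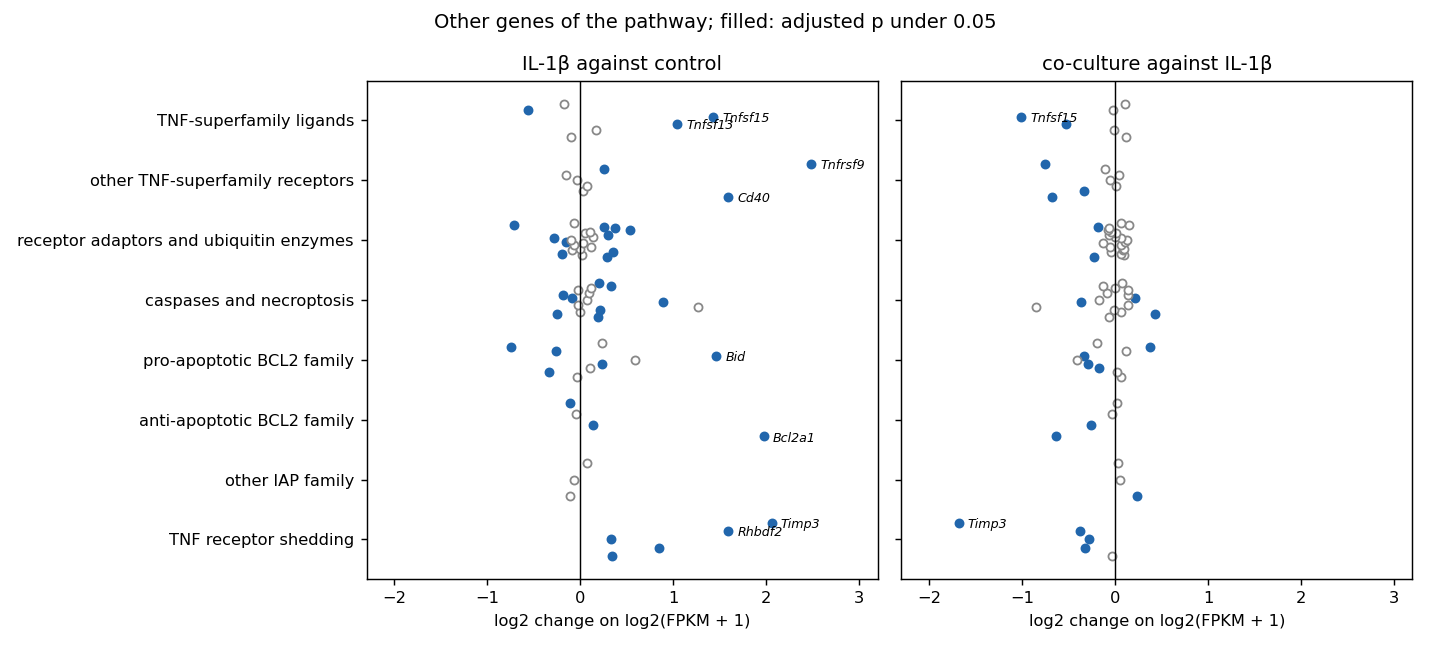
Change on log2(FPKM + 1) of the tested genes in 8 pathway lists (rows) for IL-1β against control and co-culture against IL-1β (x axes); each point is a gene, filled where the adjusted p was under 0.05. All 5 shedding genes are filled on the right with IL-1β, and the adaptor and caspase lists hold filled points on both sides.

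The libraries carried the defining transcripts of chondrocytes, and those of other cell types were measured beside the members. The summed FPKM of 12 chondrocyte markers was 668.3 to 728.1 in co-culture libraries, 482.4 to 505.3 in IL-1β libraries and 2059 to 2148 in control libraries. All 12 were lower in IL-1β cells, and 10 of them were higher in co-culture than in IL-1β cells. Macrophage markers summed to 24.62 to 26.3 FPKM in co-culture, 26.96 to 29.31 in IL-1β and 29.27 to 33.0 in control libraries, and Ptprc, Csf1r, Itgam, Cd163 and Mrc1 were under the filter, at no more than 0.69 FPKM. Of the 12 macrophage markers, 7 passed the filter. Cd68 and Cd14 were higher in IL-1β than in control cells, whereas Lyz2 (-1.78, adjusted p = 3.25e-07) and Laptm5 (-0.34, adjusted p = 0.0337) were lower, with a list median of -0.17. Laptm5 passed the filter only through control and co-culture libraries, with IL-1β at 0.78, 0.88 and 0.77 FPKM. Its call is therefore not independent of the filter. Against IL-1β cells, co-culture cells had less Cd68 and Cd14, while Lyz2 (0.27, adjusted p = 0.0831) and Laptm5 (0.17, adjusted p = 0.314) were not called. Lymphocyte markers summed to 0.05 to 0.35 FPKM in co-culture, 0.12 to 0.13 in IL-1β and 0.34 to 0.81 in control libraries. Endothelial markers summed to 9.4 to 10.4 FPKM in co-culture, 9.42 to 10.14 in IL-1β and 12.92 to 13.98 in control libraries. Most of that was Egfl7 and Erg, and the other 7 were under the filter, at no more than 0.59 FPKM. The dermal fibroblast list summed to 620.7 to 714.0 FPKM in co-culture, 1180 to 1242 in IL-1β and 212.5 to 227.1 in control libraries, mostly Lum and Dcn, and Dpp4, Pi16, Cd34, Clec3b and Entpd1 stayed at or below 1.31 FPKM. Of the 5 tested genes of this list, 4 were higher with IL-1β and Col14a1 was lower. Against IL-1β cells, co-culture cells had less Dcn and Lum and more Col14a1. Col14a1 averaged 14.71 FPKM in co-culture cells, 13.15 in IL-1β cells and 21.05 in control cells. Skeletal muscle markers summed to 490.9 to 541.4 FPKM in co-culture, 512.6 to 550.3 in IL-1β and 227.6 to 233.3 in control libraries, and all 10 were higher in IL-1β than in control cells. The part of these shifts in the members' changes was not tested, and in bulk RNA fewer cells of a type and less RNA per cell cannot be told apart. FPKM summed to 809839 to 811665 in co-culture libraries, 796262 to 832248 in IL-1β libraries and 771058 to 782435 in control libraries, and the number of reads behind them is unknown.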

How the data were processed

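Poly(A) RNA of rat primary chondrocytes was sequenced in 9 libraries, 3 per group, and groups were taken from the sample titles. The authors deposited 1 table of FPKM values for 17588 genes, per the file headers. The aligner, counter and annotation were not given in the sources used here. A mouse build, GRCm38, is named in the submitters' processing notes, whereas 93.2% of the gene identifiers are those of rat genes in RefSeq, so the build behind the alignment is not settled here and the only coordinates given are those of RefSeq promoters (GRCr8).

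The 10 members and all gene lists were chosen with earlier results of these data known. Genes with at least 1 FPKM in at least 3 of 9 libraries (11732) were tested on log2(FPKM + 1) with limma (version 3.58.1, R 4.3.3), over all 9 libraries at once, with trended variance (prior degrees of freedom 3.64), two-sided tests and Benjamini-Hochberg adjustment over all tested genes. A fold change on this scale understates the change of low genes, and folds printed beside FPKM are ratios of group means. The fit was tested on simulated data with independent normal noise and few changed genes, all in the IL-1β group. Far more genes were called in the real data, so that test does not measure the error of the calls given here. Of each pathway list, up to 4 tested genes with the smallest p in any comparison are named, plus 7 genes named in any case and those named because a count was 5 or fewer. The alternatives were pseudocounts of 0.1 and 0.5, other filters, 3 scalings, no trend, only the 6 libraries compared, the replicate number as a block, and each library left out. The table holds no counts, so depth is unknown and no count test was run. An exact 0 can be a failed estimate. Figures were drawn with matplotlib 3.10.9. Some genes of the lists are not reported here.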

Additional observations from a re-analysis of the deposited data

How the results depend on the processing

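The total counts of called genes and of called members stayed within 1.5 times of the reported totals under every alternative tried. Of the counts by direction over all genes, the 2554 higher in co-culture against control became 1541 with a common FPKM sum and 1694 with quantile normalization, and no other moved by more than 1.5 times. Of the 10 members, 7 to 8 were called for IL-1β against control, 7 to 8 for co-culture against IL-1β and 4 to 6 for co-culture against control. Of 570 recomputed member changes, 532 kept direction and side of the threshold, 28 lost the call (Tnfrsf21, Tnfrsf12a and Cflar), 1 gained it and 9 changed sign, all of them uncalled. These sign changes were Tnfrsf1a with IL-1β (-0.0032 with a common sum, -0.0185 with quantile normalization), Tnfrsf21 in co-culture against control (-0.012 with a common sum), and, with single libraries left out, Birc2 in co-culture against IL-1β (-0.0816 to 0.0057) and Tnfrsf1a in co-culture against control (-0.0261 to 0.0141). Among other pathway genes, uncalled changes that reversed were Eda2r with IL-1β (-0.0079 common sum, -0.0636 quantile, -0.0152 to 0.079 with libraries left out) and Rhbdf1 in co-culture against control (-0.0083 common sum). In co-culture against IL-1β they were Tnfsf18 (0.0062 quantile, -0.1255 to 0.0728 left out), Tnfsf12 (0.0042 quantile, -0.0925 to 0.0435), Bak1 (-0.0134 to 0.0584), Mcl1 (-0.0034 to 0.0441), Bcl2l2 (-0.0644 to 0.0067) and Xiap (-0.0163 to 0.1146), and in co-culture against control Birc6 (-0.0389 to 0.0189). Counts of called genes per pathway list moved by more than 1.5 times in 104 of 912 recomputations. The cause was not tested. Adding 1 to both FPKM values moved the Birc3 to Birc2 ratio to 0.46 in co-culture and 0.27 in control cells, and the Tnfrsf1b to Tnfrsf1a ratio to 0.152 in IL-1β and 0.112 in control cells.

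With the replicate number as a block (replicate block), 5201, 2266 and 3681 genes were called in IL-1β against control, co-culture against IL-1β and co-culture against control. Tnfrsf21 then lost both its calls (adjusted p = 0.0687 with IL-1β and 0.0506 in co-culture against IL-1β). Among the pathway lists, calls with IL-1β also ended for Map3k14 (0.0746), Cycs (0.0668) and Bbc3 (0.0617), those in co-culture against IL-1β for Traf4 (0.0729) and Bbc3 (0.0525), and that in co-culture against control for Birc5 (0.0856), each an adjusted p. Casp6 gained a call with IL-1β (adjusted p = 0.0313), and no other list gene or member changed its call. Libraries with the same number did not deviate together (correlations -0.0907 to 0.0855), so the numbers were not taken as pairs.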
